A study of Mus musculus with 33 samples.

Results

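The genes of Polycomb repressive complex 2 (PRC2) were followed in sorted olfactory neurons and in the whole olfactory epithelium of mice that are null, heterozygous or wild type for the DNA methyltransferase gene Dnmt3a. The 10 genes were the enzyme genes Ezh1 and Ezh2, the core genes Eed and Suz12, the histone-binding genes Rbbp4 and Rbbp7, the Polycomb-like genes Mtf2, Phf1 and Phf19, and Jarid2. They were taken by symbol from each of the deposited tables, and all 10 were present among the 14744 genes with values for sorted neurons and among the 14613 genes for the epithelium.

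PRC2 places methyl groups on lysine 27 of histone H3, a mark found at silent developmental genes. Ezh1 and Ezh2 are alternative catalytic subunits: Ezh2 is the form typical of dividing cells, and Ezh1 the form that prevails in many non-dividing cells. The mouse olfactory epithelium holds dividing basal progenitors, immature neurons, mature sensory neurons and sustentacular support cells side by side, so a whole-tissue sample mixes dividing and non-dividing cells.

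All mice were 3 weeks old. The genotypes, which the labels write as Dnmt3a -/- (KO), Dnmt3a +/- (Het) and Dnmt3a +/+ (WT), were homozygous null, heterozygous null and wild type. How the null allele was made, and in which cells it acts, is not given in the sources used here. Mature olfactory sensory neurons (mOSN) were isolated by fluorescence-activated sorting, and their RNA was deposited as 1 pooled value per genotype from 2 libraries, which carries no error. The main olfactory epithelium (MOE) came from mice that were habituated for 10 min and then spent 60 min with 80 µL of either odor, octanal with amyl acetate and acetophenone in equal parts, or water, with 1 library for each genotype and exposure. Ribosomal RNA was depleted in all libraries. Both KO mOSN libraries were made with the NuGEN kit from 100 ng and both WT mOSN libraries with ScriptSeq from 200 ng, while Het mOSN had 1 library of each kit. Kit and genotype therefore cannot be told apart between KO and WT neurons. All MOE libraries were made with NuGEN from 100 ng. Neurons and tissue therefore share 1 kit only in KO, and in WT kit and cell source cannot be told apart.

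Values are on the RPKM scale of the authors' tables (reads scaled by gene length and library depth), and the MOE and mOSN tables were normalized separately. Reads recovered from the MOE values summed to 9410063 in KO water, the lowest, and to 17639584 in Het odor, the highest. Dnmt3a itself was 56.2 in KO, 119.9 in Het and 174.7 in WT mOSN, so the order followed the labels, with reads still counted in KO. In MOE it was 48.3 and 56.1 in KO, 66.6 and 50.3 in Het and 89.0 and 84.4 in WT, odor before water, so KO and Het overlapped and both were below WT. The sorted neurons carried a summed level of 67241, 91985 and 97385 over 13 mature-neuron markers in KO, Het and WT, against 6414 to 28454 in MOE. Their sum over 10 sustentacular markers was 522 to 730, against 26419 to 44155 in MOE. The Het odor MOE library stood apart, with the lowest mature-neuron sum (6414) and the highest dividing-progenitor sum (2572, against 1448 to 1850 in the other 5 MOE libraries).

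Promoter windows are shown for Ezh1 and Ezh2, the alternative enzyme genes, of which Ezh2 differed between neurons and tissue and Ezh1 overlapped, and for Suz12 and Phf19, since these were the other members with a motif match. The windows run from 250 bases before to 50 bases after the RefSeq start on GRCm38.p6, with 12 windows for the 10 genes, and serve for sequence only, since the tables were built on another genome build. They were searched on both strands for the E2F-type motifs TTTCCCGC, TTTCGCGC, TTTGCCGC and TTTGGCGC, which are known from genes of the cell cycle, and capitals mark a match. Ezh1 (chr11:101226414-101226713, minus strand) held none of them, Ezh2 (chr6:47594981-47595280, minus strand) held TTTGGCGC beginning at base 4 of the transcript, Suz12 (chr11:79992856-79993155, plus strand) held TTTCCCGC beginning 219 bases before the start, and Phf19 (chr2:34913927-34914226, minus strand) held TTTCCCGC on the opposite strand, with its first printed base 208 bases before the start.
Ezh1: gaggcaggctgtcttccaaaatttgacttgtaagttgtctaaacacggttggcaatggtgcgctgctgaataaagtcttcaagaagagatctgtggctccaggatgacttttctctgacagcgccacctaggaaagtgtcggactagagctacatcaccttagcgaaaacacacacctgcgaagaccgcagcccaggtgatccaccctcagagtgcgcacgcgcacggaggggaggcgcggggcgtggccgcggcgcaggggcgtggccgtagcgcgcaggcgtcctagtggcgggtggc
Ezh2: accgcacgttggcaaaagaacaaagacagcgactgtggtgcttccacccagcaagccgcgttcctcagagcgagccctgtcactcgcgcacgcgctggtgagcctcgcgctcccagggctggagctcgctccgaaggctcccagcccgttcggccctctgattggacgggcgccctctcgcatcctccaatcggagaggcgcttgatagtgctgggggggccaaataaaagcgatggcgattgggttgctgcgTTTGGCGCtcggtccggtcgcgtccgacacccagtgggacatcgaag
Suz12: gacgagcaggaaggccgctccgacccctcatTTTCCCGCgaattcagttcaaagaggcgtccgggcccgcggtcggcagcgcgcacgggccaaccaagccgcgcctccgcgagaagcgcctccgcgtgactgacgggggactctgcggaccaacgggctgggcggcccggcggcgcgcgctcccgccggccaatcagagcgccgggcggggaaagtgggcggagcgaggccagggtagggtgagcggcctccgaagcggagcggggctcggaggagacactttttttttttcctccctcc
Phf19: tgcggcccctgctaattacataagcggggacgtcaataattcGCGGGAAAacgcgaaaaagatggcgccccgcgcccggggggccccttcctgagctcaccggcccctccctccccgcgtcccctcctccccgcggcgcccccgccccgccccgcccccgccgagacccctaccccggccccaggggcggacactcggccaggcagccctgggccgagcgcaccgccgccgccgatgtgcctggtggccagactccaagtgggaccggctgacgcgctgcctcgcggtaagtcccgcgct
A match was present in 3 of the 12 windows, each of another gene, and in 2.26% of the 32807 mouse promoter windows of the same length. The 2.26% is not matched for CpG content, and all 4 motifs hold a CpG or GC-rich stretch, so it is no measure of enrichment. The match is a description of letters and not of a bound site. All 10 genes had a CpG-rich window, with 17 CpG in Eed, the fewest, and 41 in Suz12, the most, against a median of 7 over all windows. A second window of Mtf2, further along the gene, held 2.

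Across the MOE libraries the PRC2 genes formed 3 separate tiers by level. Rbbp7 (235.3 to 312.6) and Phf1 (177.7 to 249.7) were the highest and overlapped each other. Suz12 (80.1 to 125.9), Eed (62.7 to 117.7), Rbbp4 (67.0 to 89.0), Ezh2 (59.8 to 73.7), Ezh1 (53.4 to 76.6), Jarid2 (38.5 to 56.2) and Mtf2 (27.03 to 52.4) followed in a run in which each neighbour's range overlapped the next. Phf19 (1.54 to 6.35) lay below all of them, with 12 to 82 recovered reads a library, so its counting error is the largest of the set. In mOSN the order opened with Eed (198.3 in KO, 265.8 in Het, 304.3 in WT) and Phf1 (195.8 in KO, 216.0 in Het, 264.4 in WT), and Phf19 was again the lowest. The order between genes depends on the lengths the authors divided by: relative to Ezh2, the length implied by reads and values was 0.124 for Eed and 0.12 for Phf1, against 1.93 for Jarid2. Differences of 1 gene between columns of a table do not depend on it.

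**Figure D1:**
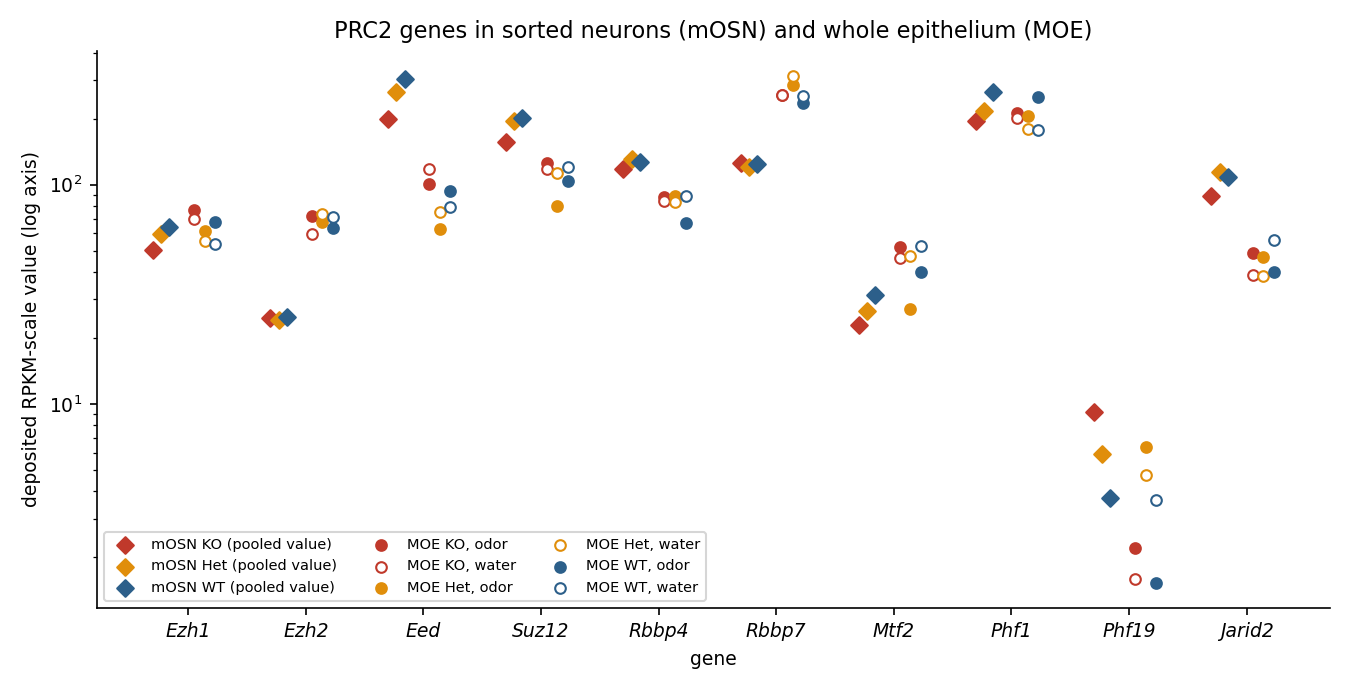
Deposited RPKM-scale values (log axis) of the 10 PRC2 genes, with diamonds for the pooled mOSN values and circles for single MOE libraries (filled for odor, open for water), coloured by genotype. Eed, Suz12, Rbbp4 and Jarid2 lie higher in mOSN than in MOE, Ezh2 and Rbbp7 lie lower, and Phf19 is the lowest gene in every column.

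The catalytic pair was split between neurons and tissue: Ezh2 was lower in sorted neurons than in every MOE library, while the Ezh1 values overlapped. Ezh2 had 24.6 in KO, 24.3 in Het and 25.0 in WT mOSN, against 71.9 and 59.8 in KO, 67.5 and 73.7 in Het and 63.3 and 71.6 in WT MOE, odor before water. The 3 neuron values lay close to each other and far below all 6 tissue values. Ezh1 had 50.3 in KO, 59.5 in Het and 64.4 in WT mOSN, against 76.6 and 70.0 in KO, 61.2 and 55.6 in Het and 67.6 and 53.4 in WT MOE. The neuron and tissue values of Ezh1 overlapped over all columns, but in KO, where both share 1 kit, the neuron value was below both tissue values. For setting the tables side by side, each column was centred at its own median log2 value over the 13356 genes in both tables. The mOSN median minus the mean of the MOE medians was -0.35 in KO, -0.15 in Het and -0.11 in WT. A centred ratio of 0 is not that of the median gene. In KO the ratio of Phf1, 0.26, was at percentile 50.5 of all shared genes, and in WT that of Ezh1 was at percentile 52.8. On that scale Ezh2 was -1.05 in KO, -1.37 in Het and -1.30 in WT, or 0.483, 0.386 and 0.405 times its MOE level. Ezh1 was -0.19 in KO, 0.18 in Het and 0.21 in WT. That the same gene lengths were used in both tables is not stated in the sources used here. With 1 value per genotype in mOSN these ratios have no error and no test.

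The ratio of Ezh1 to Ezh2 was 2.04 in KO, 2.45 in Het and 2.58 in WT mOSN, against 1.07 and 1.17 in KO, 0.907 and 0.755 in Het and 1.07 and 0.746 in WT MOE. All 3 neuron ratios were above all 6 tissue ratios, and of the pair only Ezh2 was separated between neurons and tissue over all columns. The markers of dividing progenitors moved the same way as Ezh2: 16 of the 18 listed genes were in the mOSN table, and they summed to 257 in KO, 283 in Het and 262 in WT mOSN, against 1448 to 2572 over 18 of 18 in MOE. Of them, 13 of 16 were below all MOE libraries after centring, where 23.7% of all shared genes were, while Cdk1 and Bub1 were not listed for mOSN. Mki67, a proliferation marker, was 29.4, 22.5 and 17.9 in KO, Het and WT mOSN, against 577 to 1017 in MOE. Markers of other cells were also below all MOE libraries: sustentacular 10 of 10, ensheathing and Schwann 6 of 6, globose basal 4 of 5. The same held for 4 of 6 horizontal basal, 4 of 6 macrophage and 6 of 9 endothelial and mesenchymal markers. It held for 1 of 11 immature-neuron and 0 of 13 mature-neuron markers. Within MOE, Het odor had the highest progenitor sum, 2572, with Ezh2 at 67.5, inside its range of 59.8 to 73.7. The part of cell makeup in the Ezh2 difference was not tested. In bulk RNA, fewer cells that express a gene and less of its RNA per cell cannot be told apart.

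**Figure D2:**
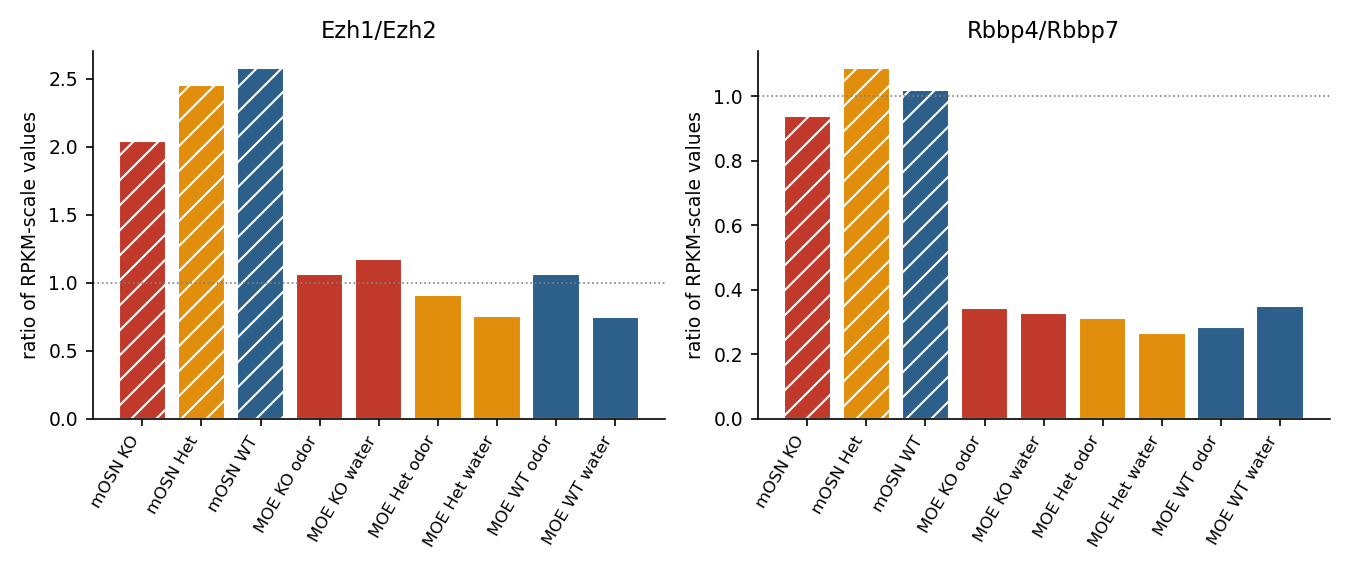
Ratios of RPKM-scale values between related PRC2 genes in each column, with hatched bars for the pooled mOSN values and plain bars for single MOE libraries; the dotted line marks equal values. Ezh1/Ezh2 is 2.04 to 2.58 in mOSN against 0.746 to 1.17 in MOE, and Rbbp4/Rbbp7 is 0.937 to 1.09 in mOSN against 0.267 to 0.351 in MOE.

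The core genes that bind and stabilise the enzyme were higher in sorted neurons. Eed, which reads the methylated lysine, had the pooled mOSN values given above, against 100.7 and 117.7 in KO, 62.7 and 75.4 in Het and 93.8 and 79.3 in WT MOE. Every neuron value of Eed was above every tissue value. After centring of the columns Eed was 1.21 in KO, 2.09 in Het and 1.92 in WT on the log2 scale, or 2.31, 4.26 and 3.79 times its MOE level. Suz12, the scaffold of the complex, had 156.6 in KO, 194.3 in Het and 200.7 in WT mOSN, against 125.9 and 118.3 in KO, 80.1 and 112.6 in Het and 104.4 and 120.3 in WT MOE. Suz12 was also separated, by smaller log2 ratios of 0.70 in KO, 1.18 in Het and 0.95 in WT. In KO, where neurons and tissue share 1 kit, Eed was at percentile 81.6 of all shared genes and Suz12 at 67.5. In WT, where the kits differ, Eed was at 94.6 and Suz12 at 78.4. The part of the kit in these ratios was not tested.

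The histone-binding pair went opposite ways. Rbbp4 had 117.8 in KO, 130.5 in Het and 127.0 in WT mOSN, against 67.0 to 89.0 in MOE, with centred log2 ratios of 0.80, 0.74 and 0.82. Rbbp7 had 125.7 in KO, 120.0 in Het and 124.4 in WT mOSN, against 235.3 to 312.6 in MOE, with ratios of -0.68, -1.16 and -0.86. The ratio of Rbbp4 to Rbbp7 was thus near 1 in neurons (0.937 in KO, 1.09 in Het, 1.02 in WT) and between 0.267 and 0.351 in tissue. Both proteins also serve in the NuRD, Sin3 and CAF-1 complexes, so their levels do not stand for PRC2 alone.

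Among the accessory genes, Jarid2, which helps to recruit PRC2 and defines one of its forms, was higher in neurons. It had 88.3 in KO, 114.2 in Het and 108.6 in WT mOSN, against 38.5 to 56.2 in MOE. After centring of the columns this was 2.57, 2.96 and 2.45 times its MOE level. The Polycomb-like genes, whose proteins define the other form, were not separated. Mtf2 was 22.9 in KO, 26.4 in Het and 31.4 in WT mOSN, and the WT value exceeded its lowest tissue value of 27.03 in Het odor. Phf1 in KO and Het neurons was inside its tissue range, and in WT neurons just above it. Phf19 was 9.23 in KO, 5.95 in Het and 3.74 in WT mOSN, against 2.22 and 1.59 in KO, 6.35 and 4.74 in Het and 1.54 and 3.66 in WT MOE, and its centred log2 ratio ran from 0.25 in Het to 2.38 in KO.

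Counted together, 4 of the 10 genes (Eed, Suz12, Rbbp4, Jarid2) lay above all 6 MOE libraries in all 3 mOSN columns after centring, where 32.3% of all shared genes did, and 2 (Ezh2, Rbbp7) lay below, where 23.7% did. At least 2-fold differences in all 3 genotypes were seen for Eed and Jarid2 upward, where 13.1% of genes qualified, and for Ezh2 downward, where 12.8% did. These shares are near the background, so the number of PRC2 genes that differ is no result about the complex. In the KO columns alone, which share 1 kit, 6 members lay above and 4 below, where 53.4% and 35.7% of all genes did. The 4 below were Ezh1, Ezh2, Rbbp7 and Mtf2. The side of the 6 genes separated over all columns is fixed there by the way they were counted. Leaving out the Het odor library added Mtf2 to the genes below, for 3 genes where 25.3% of all genes lay below.

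**Figure D3:**
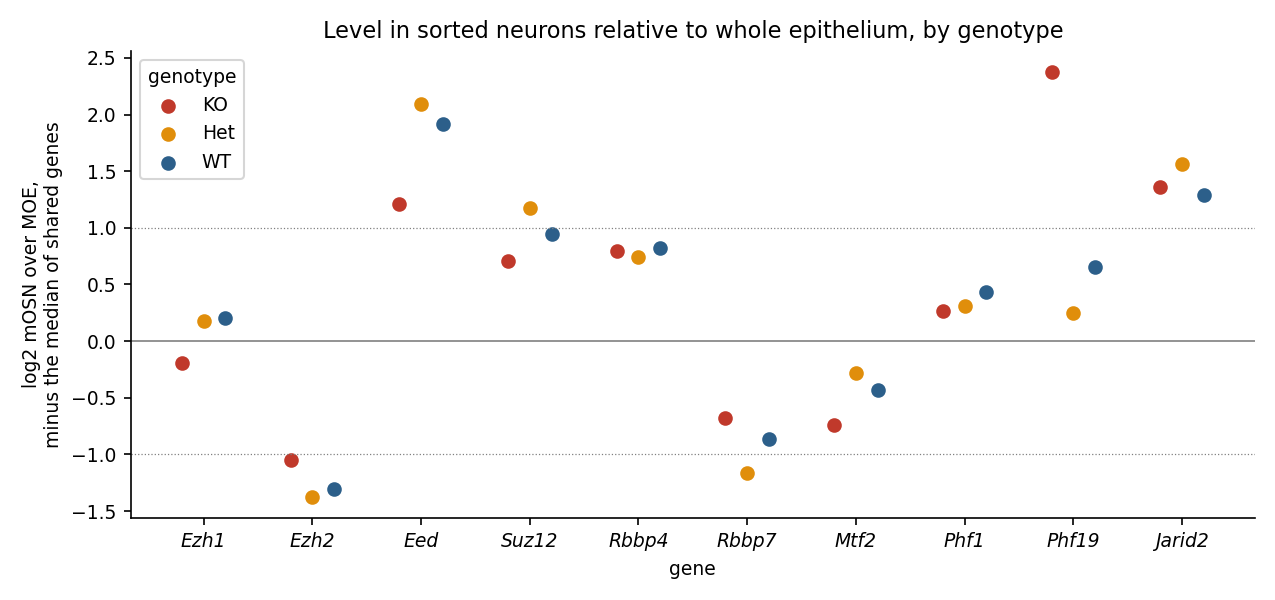
Log2 ratio of the pooled mOSN value over the mean of the 2 MOE libraries of the same genotype for each PRC2 gene. Each column was first centred at its median over the shared genes, and dotted lines mark 2-fold. Eed and Jarid2 are above the upper line and Ezh2 below the lower one in all 3 genotypes, and Phf19 ranges from 0.25 in Het to 2.38 in KO.

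In KO neurons the PRC2 genes were mostly lower than in WT neurons, by amounts that stayed under 2-fold, with Phf19 as the exception. KO mOSN had 65.1% of the WT value for Eed, 73.0% for Mtf2, 74.1% for Phf1, 78.0% for Suz12, 78.1% for Ezh1 and 81.3% for Jarid2. For Rbbp4, Ezh2 and Rbbp7 the KO value was 92.8%, 98.4% and 101% of WT. In all, 8 of 10 were lower in KO, where 57.2% of all 14738 genes kept were lower and the median log2 ratio was -0.13. Past that median shift, 6 of the 10 were lower (Ezh1, Eed, Suz12, Mtf2, Phf1, Jarid2), with Eed the furthest at a log2 ratio of -0.62. By definition as many genes lie below a median as above it, so this count is near the background. Those 6 were at percentiles 13.9 (Eed) to 38.7 (Jarid2) of all ratios, and the others at 51.5 (Rbbp4) to 86.5 (Phf19). The 2 values that make each ratio have no error, and the KO and WT libraries also differed in kit, so no test of these differences exists.

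Het neurons lay between KO and WT for 6 genes. The order KO below Het below WT held for Ezh1, Eed, Suz12, Mtf2 and Phf1, which is 5 of 10 where 32.7% of all genes showed it. The reverse order held for Phf19, where 21.9% of all genes showed it. Het had 81.7% of the WT value for Phf1, 84.2% for Mtf2, 87.4% for Eed and 92.5% for Ezh1, and the other members other than Phf19 were between 96.5% and 105%. No member was 2-fold apart, where 6.89% of all genes were at least 2-fold higher and 2.5% at least 2-fold lower in Het. Het mOSN also held 1 library of each kit, so the same order would be read from kit and from genotype.

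Phf19, which encodes a Polycomb-like protein that binds methylated lysine 36 of histone H3, was the only member at least 2-fold apart: its KO mOSN value of 9.23 was 247% of the WT value of 3.74, and the Het value of 5.95 was 159% of WT. At least 2-fold higher values in KO were seen for 17.5% of all genes and at least 2-fold lower ones for 2.84%. Low genes made up most of these: among genes whose WT value was from 1 to 10, as for Phf19, 53.6% were at least 2-fold higher in KO, against 2.15% of genes at 10 or more. In Het the shares were 19% and 1.4%. Most genes of this level thus showed the same difference as Phf19. In MOE, Phf19 was 2.22 and 1.59 in KO against 1.54 and 3.66 in WT, odor before water, so the genotypes overlapped. The part of the kit in the mOSN difference was not tested.

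In MOE no PRC2 gene differed between KO and WT in limma's test. Eed, the member with the smallest p, had 100.7 and 117.7 in KO against 93.8 and 79.3 in WT, odor before water, a log2 fold change of 0.33 ± 0.22 (SE, adjusted p = 1.00). It was 0.58 without WT odor and 0.092 without WT water. Both KO values were above both WT values, which also held for Ezh1 (log2 fold change 0.28 ± 0.21) and narrowly for Rbbp7 (0.07 ± 0.17), 3 of 10 where 12.4% of all genes did so. No member had both KO libraries below both WT libraries, which 13.3% of genes had. Eed and Ezh1 were thus higher in KO tissue and lower in KO neurons, neither with support from a test. The other log2 fold changes were 0.16 ± 0.22 for Rbbp4, 0.12 ± 0.22 for Suz12, 0.10 ± 0.30 for Mtf2, -0.02 ± 0.19 for Phf1, -0.04 ± 0.22 for Ezh2, -0.13 ± 0.29 for Jarid2 and -0.29 ± 0.58 for Phf19. The 95% intervals of the 9 genes other than Phf19 lay between -0.85 and 0.88, so a 2-fold difference in either direction was outside each of them, while that of Phf19 (-1.72 to 1.14) includes it. Limma called 0 of 14602 genes (0%) in this comparison, and 185 were higher and 141 lower with p under 0.05 before adjustment (2.23%), none of them a PRC2 gene. Voom on the recovered reads also called 0. Nothing in the labels says that libraries came from separate animals, so the p-values reflect only how far these particular libraries scatter.

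Het MOE was likewise without a PRC2 gene past the threshold. Rbbp7 had 284.8 and 312.6 in Het against 235.3 and 253.0 in WT (log2 fold change 0.29 ± 0.17, adjusted p = 0.706 by limma). Phf19 had 6.35 and 4.74 in Het against 1.54 and 3.66 in WT (1.04 ± 0.58, adjusted p = 0.706 by limma), the widest gap of any member, on 82 and 49 reads against 15 and 37. In both, the Het libraries were above the WT libraries, as for 19% of all genes. Eed had 62.7 and 75.4 in Het against 93.8 and 79.3 in WT (-0.32 ± 0.22, adjusted p = 0.726 by limma), with both Het libraries below, as for 18% of all genes. Mtf2 (-0.35 ± 0.30) and Suz12 (-0.24 ± 0.22) took much of their difference from the Het odor library, which held 27.03 of Mtf2 and 80.1 of Suz12, the lowest value of each. The part of cell makeup in these 2 values was not tested for that library, which had the most dividing-progenitor and least mature-neuron signal. Without that library the log2 fold changes were -0.016 for Mtf2, -0.021 for Suz12, -0.19 for Eed, 0.33 for Rbbp7 and 0.69 for Phf19. The WT libraries weighed as much for Phf19, at 0.34 without WT odor and 1.75 without WT water, and for Eed, at -0.082 and -0.57. The 95% interval of Mtf2 (-1.10 to 0.40) includes a 2-fold lower level. The remaining members were within 0.16 of 0 on the log2 scale. Limma called 0 of 14602 genes (0%), and 395 were higher and 582 lower with p under 0.05 before adjustment (6.69%), none of them a PRC2 gene. Voom also called 0. The KO and Het comparisons share the WT libraries, so likeness between them is not independent.

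**Figure D4:**
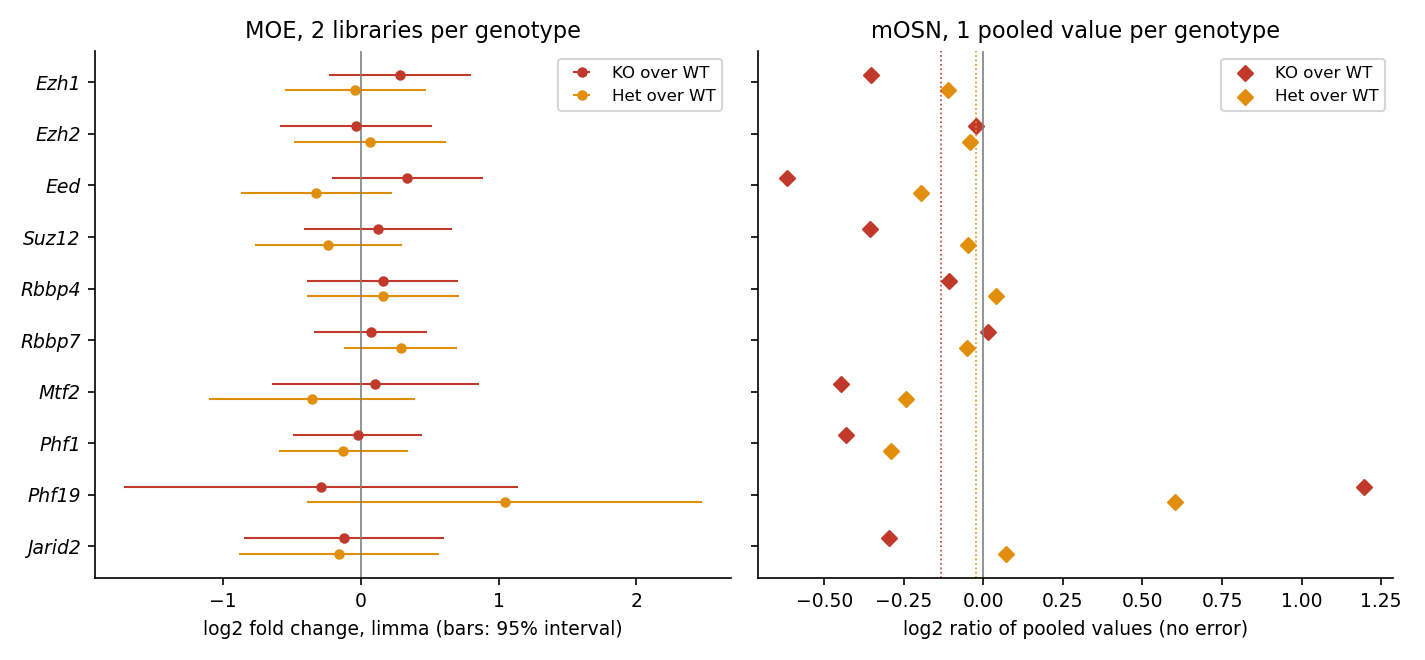
Log2 fold changes of the PRC2 genes over WT in MOE (left, circles with 95% limma intervals, 2 libraries per genotype) and log2 ratios of the pooled values in mOSN (right, diamonds, no error; dotted lines mark the median of all genes). All MOE intervals include 0, and in mOSN Eed is the lowest KO ratio at -0.62 and Phf19 the highest, 247% of WT.

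Odor exposure for 60 min left no PRC2 gene past the threshold. Phf1 was 212.1 with odor against 202.2 with water in KO, 206.6 against 179.8 in Het and 249.7 against 177.7 in WT, a log2 fold change of 0.25 ± 0.15 (adjusted p = 0.882 by limma). Ezh1 was 76.6 against 70.0 in KO, 61.2 against 55.6 in Het and 67.6 against 53.4 in WT, a log2 fold change of 0.20 ± 0.17 (adjusted p = 0.884 by limma). These were the 2 members higher with odor in all 3 genotypes, as 15.6% of all genes were, and none was lower in all 3, as 11.9% were. Mtf2 had the largest change in size, -0.34 ± 0.25, from log2 ratios of 0.16 in KO, -0.79 in Het and -0.39 in WT, and it was -0.11 without the Het odor library and -0.59 without a KO library (adjusted p = 0.562 by limma without KO odor). The intervals of the members other than Phf19 lay between -0.95 and 0.63. Across all genes limma called 2 (0.0137%), neither a PRC2 gene, and 439 were higher and 272 lower with p under 0.05 before adjustment (4.87%).

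For 4 genes the odor ratio was below 0 in Het and WT and above 0 in KO: Ezh2, Suz12, Rbbp7 and Mtf2, where 16.6% of all genes showed this. Suz12 was at 0.09 in KO, -0.49 in Het and -0.20 in WT, and Ezh2 at 0.27 in KO, -0.13 in Het and -0.17 in WT. The KO value of Rbbp7 was 0.00, so its place among the 4 is nominal. The rule set beforehand asked for a log2 move of at least 0.25 in every genotype. None of the 4 met it, so they are grouped by sign alone. In the test of the KO odor effect against the common Het and WT effect, Mtf2 had a difference of 0.75 ± 0.45 (adjusted p = 0.784 by limma), Suz12 of 0.44 ± 0.35 and Ezh2 of 0.42 ± 0.37. No member passed, and with 1 residual degree of freedom the interval of Mtf2 ran from -0.37 to 1.87. Limma called 0 of 14602 genes (0%), and 548 were higher and 491 lower with p under 0.05 before adjustment (7.12%), none of them a PRC2 gene. Voom also called 0.

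**Figure D5:**
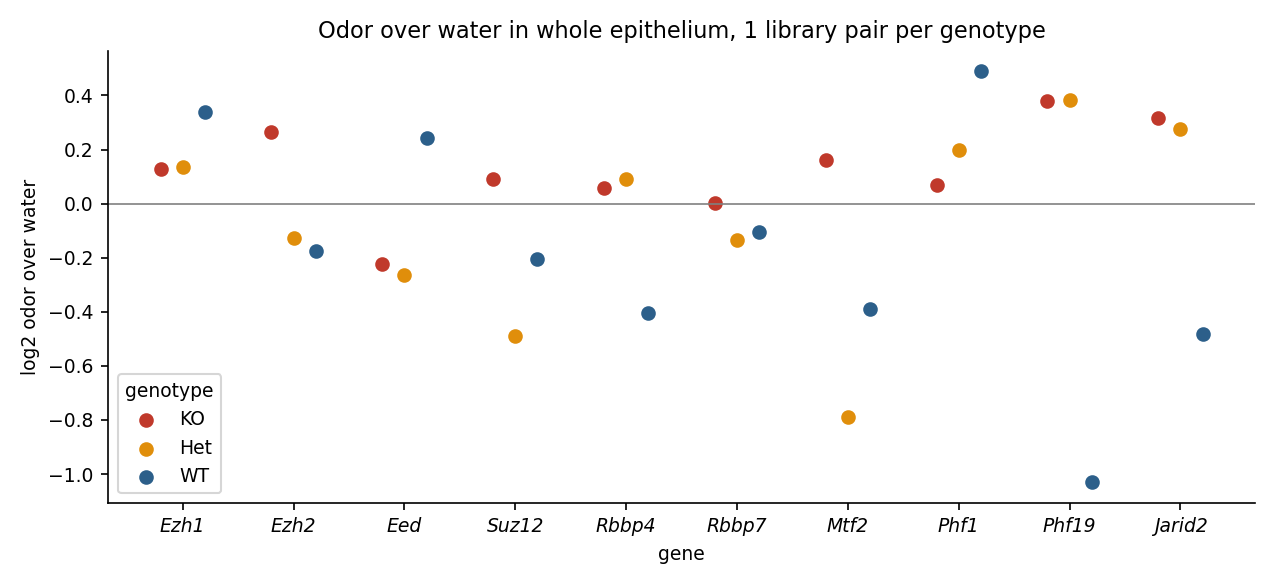
Log2 ratio of odor over water in MOE for each PRC2 gene, 1 library pair per genotype, without error. Phf1 and Ezh1 are above 0 in all 3 genotypes, Mtf2 ranges from -0.79 in Het to 0.16 in KO, and Phf19, with 12 to 82 reads a library, has the lowest point at -1.03 in WT.

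The genes whose MOE profile was most like that of a PRC2 gene were found among 13521 or 13522 genes with a mean value of at least 5, by the root mean square difference of log2 values over the 6 libraries after centring each gene. For Ezh1 they were Acad9 (0.02), Zc3hav1 (0.03), Epb4.1l4b, Ndor1 and Shc1 (0.05 each), and for Ezh2 Vkorc1l1 (0.02), Wipi1 (0.03), Ero1l, Gtpbp4 and Ptk2 (0.04 each). Ezh1 and Ezh2 themselves varied by 0.18 and 0.11 around their means. Phf19, the member with the largest spread, varied by 0.66, and its nearest were Nrcam (0.07), Gprc5b (0.11), Fam64a, Cacna1e (0.13 each) and Atl1 (0.14). These points share 6 libraries and their cell makeup.

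Of 7 further PRC2-associated symbols, 4 were listed for mOSN and 3 for MOE, and none passed limma's test. Aebp2, a partner of Jarid2 in the same form of PRC2, was 54.4 in KO against 80.7 in WT mOSN. Lcor was 87.3 in KO against 129.5 in WT, and Lcorl 31.8 in KO against 43.8 in WT; the products of these genes take part in the Polycomb-like form. AU022751, the mouse gene for the PRC2 inhibitor Ezhip, was listed for mOSN only, at 5.39 in KO, 6.44 in Het and 1.59 in WT. Among genes with a WT value from 1 to 10, 53.6% were at least 2-fold higher in KO and 19% in Het. In MOE the largest genotype differences were those of Lcorl (-0.80 ± 0.38) and Aebp2 (-0.53 ± 0.25) in Het over WT on the log2 scale, both with an adjusted p of 0.706 by limma. The 3 genes summed to 100.7 in Het odor and 171.8 in Het water, against 174.4 in WT odor and 203.8 in WT water, so the Het odor library was the lowest. The KO odor effect was 0.79 ± 0.38 for Lcor and 0.76 ± 0.62 for Lcorl, with adjusted p of 0.767 and 0.846 by limma.

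PRC1, the complex that reads the PRC2 mark and ubiquitinates histone H2A, was complete in both tables with 24 of 24 listed genes. In MOE, KO over WT, 12 were higher and 12 lower, the median was 0.00 and none passed. Pcgf1, a subunit of variant PRC1, had the largest KO difference, 0.78 ± 0.37 (adjusted p = 1.00 by limma). In mOSN, 17 of 24 were lower in KO than in WT with a median log2 ratio of -0.25, where 57.2% of all genes were lower with a median of -0.13, and none was 2-fold apart; Phc3 was lowest at 15.2 in KO against 30.3 in WT. In neurons over tissue, 10 were above all MOE libraries, where 32.3% of all genes were, and 6 below, where 23.7% were. Pcgf1 was 85.4 in WT mOSN against a WT MOE mean of 11.6, and Ring1 50.5 against 8.73.

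Enzymes that oppose Polycomb marks were less than 2-fold apart between KO and WT neurons. Of the H3K27 demethylases, Kdm6a was 45.1 in KO against 37.2 in WT mOSN and Kdm6b 299.6 against 315.8. With odor over water in MOE, Kdm6b had a log2 fold change of 0.45 ± 0.19 (adjusted p = 0.882 by limma). All 4 genes of the PR-DUB complex, which removes the PRC1 mark, were lower in KO than in WT mOSN, with a median log2 ratio of -0.52, against -0.13 over all genes, of which 57.2% were lower. The lowest were Asxl3 (14.7 in KO against 23.6 in WT) and Asxl2 (30.6 against 48.8). None of the 4 passed in MOE. Among 16 partners of Rbbp4 and Rbbp7 in NuRD, Sin3 and CAF-1, Chaf1b was 9.28 in KO against 2.67 in WT mOSN, a level at which 53.6% of all genes were at least 2-fold higher, and Chaf1a, its partner in CAF-1, was 83.5 against 135.3.

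Genes known from other tissues as targets of Polycomb repression were mostly low in these samples. Of 52 listed Hox and other developmental genes, 36 were in the mOSN table and 15 in the MOE table. In mOSN their median value was 12.0 in KO, 7.60 in Het and 3.92 in WT. In KO, 35 of 36 were higher than in WT, all but Hoxd13 (7.89 against 9.04), and 26 were at least 2-fold higher. Over all genes, 57.2% were lower in KO and 17.5% were at least 2-fold higher. The share higher by any amount was not counted for low genes alone, so 35 of 36 has no background matched for level. Msx1 had 33.6 in KO, 13.9 in Het and 4.59 in WT, and Tbx3 6.15 in KO, 3.02 in Het and 0.820 in WT. Of the 26, 23 were among the 29 genes with a WT value under 10, the range in which 53.6% of all genes from 1 to 10 were at least 2-fold higher in KO. The other 3 were among the 7 genes at 10 or more, where 2.15% were. These were Lhx5, Nkx6-1 and Cdkn1c, with WT values of 11.8, 10.5 and 24.9, below the WT median of 36.5 over all genes. The 2.15% is thus not matched for level and is no measure for them. Summed markers of other cells differed in both directions. The horizontal basal cell markers present, 6 of 7, summed to 85.8 in KO, 23.8 in Het and 13.7 in WT mOSN, and the endothelial and mesenchymal ones, 9 of 10, to 92.2, 66.0 and 51.0. Macrophage markers, 6 of 10, summed to 58.3 in KO, 61.7 in Het and 42.9 in WT, and sustentacular markers to 730, 645 and 522. Ensheathing and Schwann markers, 6 of 7, summed to 63.4 in KO, 53.2 in Het and 73.2 in WT, lower in KO than in WT, and the dividing-progenitor sums given above were close. The part of these cells in the target values was not tested, and kit and genotype cannot be told apart. In MOE, with 1 kit, 12 of 15 were higher in KO than in WT with a median log2 fold change of 0.21, where 7077 of all 14602 genes were higher with a median of -0.01, and none passed limma's test. The difference furthest from 0 in this list, that of Foxd3, went the other way, at -2.26 ± 0.53 (adjusted p = 1.00 by limma).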

How the data were processed

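RNA was analysed in 12 of the 33 samples: 6 mOSN and 6 MOE libraries. The other 21 samples were not analysed here. The authors named the values of both deposited tables RPKM. The submitters' processing notes list the builds mm9 and NCBIM37 and the tools DESeq, featureCounts, Picard 1.64, STAR 2.3.0 and Bowtie2 2.1; their order and the normalization formula are not given in the sources used here. All 14613 MOE genes (100%) could be written as whole reads within a relative tolerance of 1e-05, apart from any common factor within a gene, and these reads give the depth. Of 14751 mOSN rows, 7 without values were left out; how the libraries were pooled is not stated and their depth is unknown.

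The filter kept genes that reached 0.5 in 2 or more columns (14602 in MOE, 14738 in mOSN) and taken as log2(value + 0.5), which understates differences of low genes. MOE comparisons used limma 3.58.1 in R 4.3.3, on all 6 libraries, with a trend of variance on mean level; p-values are two-sided and Benjamini-Hochberg adjusted over all genes, with a threshold of 0.05. Genotypes were compared with exposure as a block and odor with genotype as a block, so a genotype-dependent odor response counts as error. The KO odor test assumes that Het and WT respond alike. The limma test foreseen for mOSN could not be run, since the table holds 1 value per genotype; ratios are given with no test, and at least 2-fold counts as called. Neurons and tissue were compared as log2 ratios after each column was centred at its median over the shared genes.

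All 10 PRC2 genes are named throughout; a gene of another list is named where it is among the 2 highest or 2 lowest of its list, and further genes were named after their values were seen. The members and lists were chosen with earlier results of these data known. Promoter sequences are from RefSeq (GRCm38.p6). Alternatives were pseudocounts of 0.1 and 1, other filters, median-ratio and quantile scaling, no trend, voom on recovered reads, and leaving out libraries.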

Additional observations from a re-analysis of the deposited data

How the results depend on the processing

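No PRC2 gene passed limma's threshold in any alternative: the smallest adjusted p was 0.984 over 149 values for KO against WT, 0.537 over 149 for Het against WT, 0.562 over 179 for odor against water and 0.765 over 99 for the KO odor effect. The calls over all genes were less stable. For Het against WT, leaving out 1 library gave 0 to 27 genes, the 27 without WT water. For odor against water, with 2 genes in all libraries, the count was 1 with median-ratio scaling, 0 without the trend, 6 with voom, 0 without both KO libraries, 0 without both Het libraries, 4 without both WT libraries, 1 without the genotype block and 0 to 4 without 1 library. Within KO columns, a subset chosen after seeing the data like the one without the Het odor library, 4 PRC2 genes were lower in mOSN than in MOE, against 2 in all columns.

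Leaving out 1 library turned the sign of small log2 differences. For KO against WT the ranges were -0.25 to 0.17 for Ezh2, -0.095 to 0.34 for Suz12, -0.083 to 0.40 for Rbbp4, -0.27 to 0.48 for Mtf2, -0.20 to 0.15 for Phf1, -0.995 to 0.42 for Phf19 and -0.52 to 0.26 for Jarid2. For Het against WT they were -0.14 to 0.061 for Ezh1, -0.056 to 0.19 for Ezh2, -0.079 to 0.40 for Rbbp4, -0.31 to 0.050 for Phf1 and -0.55 to 0.23 for Jarid2. For odor against water they were -0.15 to 0.070 for Ezh2, -0.24 to 0.0087 for Eed, -0.17 to 0.074 for Rbbp4, -0.33 to 0.38 for Phf19 and -0.10 to 0.30 for Jarid2. The odor values that turned without both libraries of a genotype were 0.045 for Ezh2, 0.0087 for Eed and -0.082 for Jarid2 without Het, 0.070 for Ezh2, 0.074 for Rbbp4 and 0.38 for Phf19 without WT, and -0.10 for Jarid2 without KO. Without both WT libraries the KO odor effect was 0.041 for Eed, -0.034 for Rbbp4 and -0.0047 for Phf19. The cause was not tested.

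No paired analysis was possible because replicate numbers pair no columns: the mOSN table pools its replicates and each MOE group has 1 library; the MOE fits used exposure or genotype as the block instead. Depth limits Phf19 most, with 12 to 82 reads a library. Absence of calls is no evidence that levels were equal, and the mOSN differences have no measure of error.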
